A study of Mus musculus with 6 samples.

Results

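The expression of 9 immediate early genes was compared between splenic B cells of wild-type mice with and without a TLR9 ligand: Egr1, Egr2 and Egr3, Nr4a1, Nr4a2 and Nr4a3, and Ier2, Ier3 and Ier5. They are 9 of the 23420 genes measured in each sample, found by symbol, and all 9 were among the 11233 genes tested. The RNA-seq data comprised 3 CpG-stimulated and 3 unstimulated samples of bead purified B cells from the spleens of BALB/c mice, a non-autoimmune strain, that were 7 to 11 weeks old. No allele was modified in either group. Cultures of 10 M cells at 10 M/mL received CpG ODN at 10 μg/mL for 4 hours or were left unstimulated. No other time was sampled, so a rise or fall before 4 hours was not measured. Replicates 1 and 2 of each group were labeled female and replicate 3 male. The cells came from 3 mice, and it is not given which samples share a mouse, so the spread between samples may in part be technical. CpG ODN is a synthetic DNA with unmethylated CpG motifs, recognized by TLR9 in endosomes.

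Immediate early genes are transcribed within minutes of a signal without new protein synthesis, and most of their transcripts decay quickly. EGR1, EGR2 and EGR3 are zinc finger transcription factors that bind GC-rich sites and are induced in B cells by antigen receptor signals through the ERK pathway. NR4A1, NR4A2 and NR4A3 are orphan nuclear receptors; Nr4a1 expression is widely used as a reporter of antigen receptor signaling in lymphocytes. Ier2, Ier3 and Ier5 encode small proteins of the early response that are unrelated to these factors.

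Values are log2 CPM, gene counts scaled to a common library size. A value of -0.76 corresponds to 10 reads and -2.34 to 3 reads, the limit of detection used here. Differences are given as log2FC, CpG-stimulated minus unstimulated. A gene was called raised or lowered at a log2FC over 1 or under -1 with an FDR under 0.05, computed with limma over all 11233 genes and adjusted by the Benjamini-Hochberg method. The 9 genes were selected on earlier values of this same comparison, so their calls in this fit are a description and no independent test. The libraries were scaled to one distribution, so these values cannot show whether the total RNA of a cell changed, and fewer cells expressing a gene cannot be told apart from less RNA per cell. Values also carry a shift by replicate number that moves both groups together. It does not alter a log2FC, but it does alter differences between the replicates of a group. The size and sign of the shift differ between genes, and the standard errors and reads given here contain it.

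The samples carried the transcripts of B cells. All 8 B cell markers were tested, and their summed level was 3794 to 4409 CPM in unstimulated and 2675 to 3036 CPM in CpG-stimulated samples, with 3 markers lowered and 0 raised. All 6 T cell markers averaged at or under 3 reads over the 6 samples, with summed levels of 0.407 to 0.632 CPM. Of 4 NK cell markers 3 averaged at or under 3 reads, and their sum was 2.97 to 3.44 CPM against 1.48 to 2.58 CPM with CpG, with Prf1 lowered. Klrb1c, among these 3, went the other way, from -4.27, -4.79 and -4.90 log2 CPM, under the limit of detection, to -0.84, 0.23 and 0.23 with CpG, and was not tested. The 7 myeloid markers summed to 7.52 to 14.9 CPM and 10.1 to 15.8 CPM, with 2 lowered and 0 raised. S100a8 averaged at or under 3 reads over the 6 samples. The 5 erythroid markers summed to 404 to 3845 CPM in unstimulated and 384 to 4912 CPM in CpG-stimulated samples, the highest in replicate 2 of both groups. Hba-a1 was under 3 reads in every sample, and 0 of the 4 tested erythroid markers were called. Their part in the results was not tested; without replicate 2 of both groups, 3 of the 9 genes were still called lowered and 1 raised.

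At 4 hours most of these early genes stood lower with CpG than without. Egr1, Egr3 and Nr4a2 were called lowered, 3 of 9 genes, where 15.3% of all genes tested were. Ier3 was called raised, 1 of 9, where 15.8% of all genes tested were. On the FDR alone, 6 of 9 were lower (36.7% of all genes) and 2 of 9 higher (37.6%). Every CpG-stimulated sample lay below every unstimulated sample for the same 6 genes (38.6% of all genes) and above for Ier3 and Ier5 (39.1%). The median log2FC of the 9 genes was -0.38 and that of all genes tested 0.003; the median size of the difference, regardless of sign, was 0.515 for the 9 genes and 0.635 for all genes. These counts describe the genes as chosen and support nothing further.

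**Figure D1:**
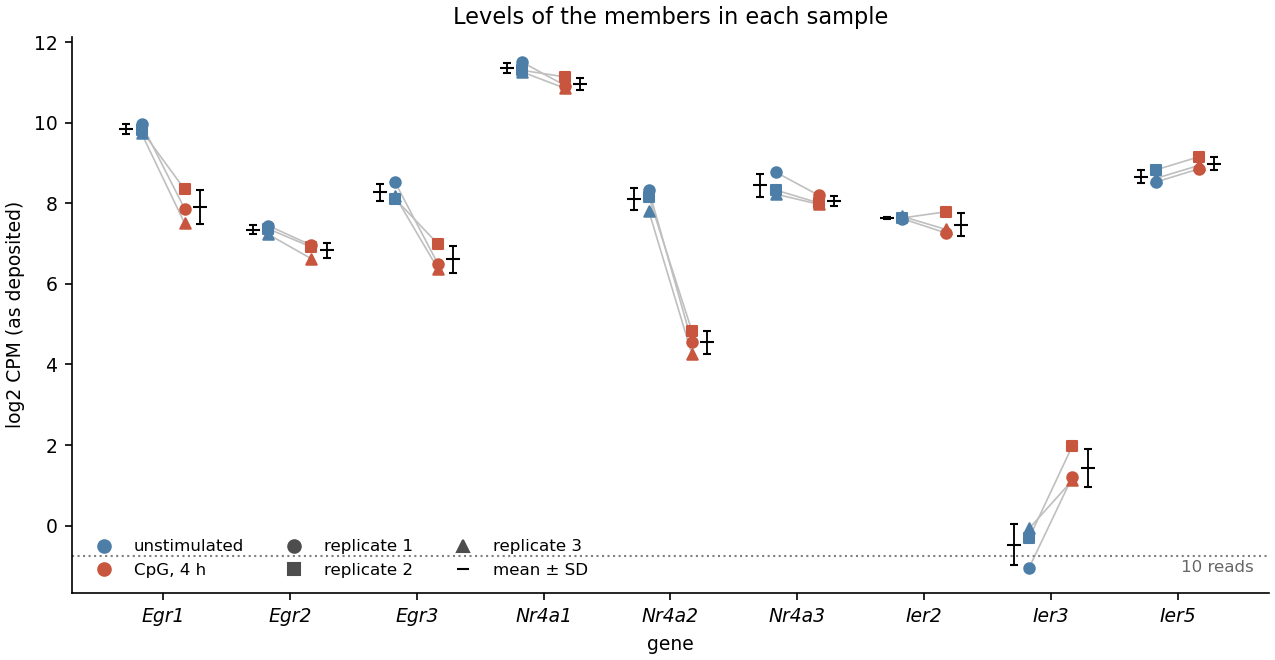
Deposited log2 CPM of the 9 genes in each sample. Blue marks are the 3 unstimulated and red marks the 3 CpG-stimulated samples, the shape gives the replicate number, gray lines join samples with the same number, and black bars are the mean ± SD (n = 3). Nr4a2 shows the widest gap between the groups, Ier2 overlaps, and Ier3 starts near the level of 10 reads.

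Of the Egr genes, Egr1 had the highest level and the widest drop. Egr1, on chromosome 18 of GRCm38 from 34859823 to 34864984 (plus strand), encodes the best known factor of the family. Its values were 9.97, 9.81 and 9.73 log2 CPM in unstimulated replicates 1, 2 and 3, and 7.86, 8.34 and 7.50 with CpG. All stimulated samples were at least 1.39 below the lowest unstimulated one, and replicate 2 kept the highest stimulated value. The mean went from 9.84 ± 0.12 to 7.90 ± 0.42 (SD, n = 3 each), 3.82-fold lower, with a log2FC of -1.93 (standard error 0.17, 95% interval -2.32 to -1.55).

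Egr3, on chromosome 14 from 70077203 to 70082614 (plus strand), encodes a factor that binds the same sites as EGR1. It read 8.52, 8.11 and 8.18 log2 CPM without CpG and 6.48, 6.98 and 6.36 with it. The groups were separated by 1.13, again with replicate 2 the highest of the stimulated samples. Its log2FC was -1.66 (standard error 0.16, 95% interval -2.01 to -1.31), 3.16-fold lower.

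Egr2 lies on chromosome 10 from 67535475 to 67542188 (plus strand) and is known as a brake on lymphocyte activation, together with Egr3. Its values were 7.44, 7.36 and 7.23 without and 6.96, 6.91 and 6.62 log2 CPM with CpG. The groups did not overlap but stood only 0.27 apart. The log2FC of -0.52 (standard error 0.10, 95% interval -0.73 to -0.30) met the FDR threshold and not that of size.

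The balance among the Egr transcripts differed between the groups as well. Levels of different genes were compared per kb of annotated exon. Without CpG, Egr1 made up 62.4 to 64.3% of the summed Egr1, Egr2 and Egr3 level over the 3 samples, Egr3 20.2 to 23.3% and Egr2 14.3 to 15.6%. With CpG, the share of Egr1 was 45.9 to 53.0% and that of Egr2 26.0 to 33.6%, both outside the unstimulated ranges, while that of Egr3 was 18.6 to 21.2%. Egr2 and Egr3 changed places. Egr3 stood above Egr2 by 0.37 to 0.70 on the log2 scale per kb in unstimulated samples and below it by 0.31 to 0.85 in stimulated ones. The summed level per kb of exon was 323 ± 30.6 CPM without and 111 ± 24.3 CPM with CpG (SD, n = 3 each). Within replicate numbers 1, 2 and 3 the stimulated sum was 0.304, 0.438 and 0.294 of the unstimulated value.

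Nr4a2 had the most negative log2FC of the 9 genes and stood at rank 35 from the lowest among the 11233 genes tested. Nr4a2, also known as Nurr1, lies on chromosome 2 from 57106830 to 57124003 (minus strand). Its values were 8.34, 8.16 and 7.81 log2 CPM in unstimulated and 4.56, 4.83 and 4.26 in CpG-stimulated samples. The lowest unstimulated sample was 2.98 above the highest stimulated one. The mean went from 8.10 ± 0.27 to 4.55 ± 0.29 (SD, n = 3 each), 11.7-fold lower, with a log2FC of -3.55 (standard error 0.16, 95% interval -3.90 to -3.20). The difference within each replicate number was -3.78, -3.33 and -3.55.

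Nr4a1, also known as Nur77, was the most abundant of the 9 genes per kb in both groups. It lies on chromosome 15 from 101254269 to 101274795 (plus strand) and read 11.50, 11.30 and 11.26 log2 CPM without CpG and 10.92, 11.14 and 10.85 with it. The groups were 0.12 apart, with replicate 2 of the stimulated samples nearest to the unstimulated range. The log2FC was -0.38 (standard error 0.10, 95% interval -0.60 to -0.17). Among the 10558 tested genes with an annotated exon length, Nr4a1 ranked 49 in unstimulated and 69 in CpG-stimulated samples by level per kb.

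Nr4a3, also known as NOR1, is on chromosome 4 from 48045153 to 48086447 (plus strand). Its values of 8.77, 8.33 and 8.23 log2 CPM without and 8.20, 8.01 and 7.97 with CpG were separated by no more than 0.03. The log2FC was -0.38 (standard error 0.13, 95% interval -0.67 to -0.10). It met the FDR threshold but no longer did so without CpG-stimulated replicate 3, and was -0.22 without unstimulated replicate 1.

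The log2FC of Nr4a2 thus stood well below those of its paralogs, a pattern that was in view when the genes were chosen. Per kb, Nr4a1 exceeded Nr4a2 by 3.34 to 3.66 on the log2 scale in unstimulated and by 6.51 to 6.80 in stimulated samples. Its distance to Nr4a3 was 3.50 to 3.80 and 3.49 to 3.90, the same within the spread of the samples. Nr4a2 stood above Nr4a3 by 0.12 to 0.40 in all unstimulated samples and below it by 2.62 to 3.15 in all stimulated ones. The share of Nr4a2 in the summed Nr4a level was 6.87 to 8.39% without and 0.822 to 1.02% with CpG, and that of Nr4a1 84.4 to 86.9% and 91.0 to 92.8%. Because Nr4a1 dominates the sum, the summed level per kb was 875 ± 93.1 CPM without and 624 ± 60.4 CPM with CpG (SD, n = 3 each), or 0.619, 0.820 and 0.714 of the unstimulated value within replicate numbers 1, 2 and 3.

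**Figure D2:**
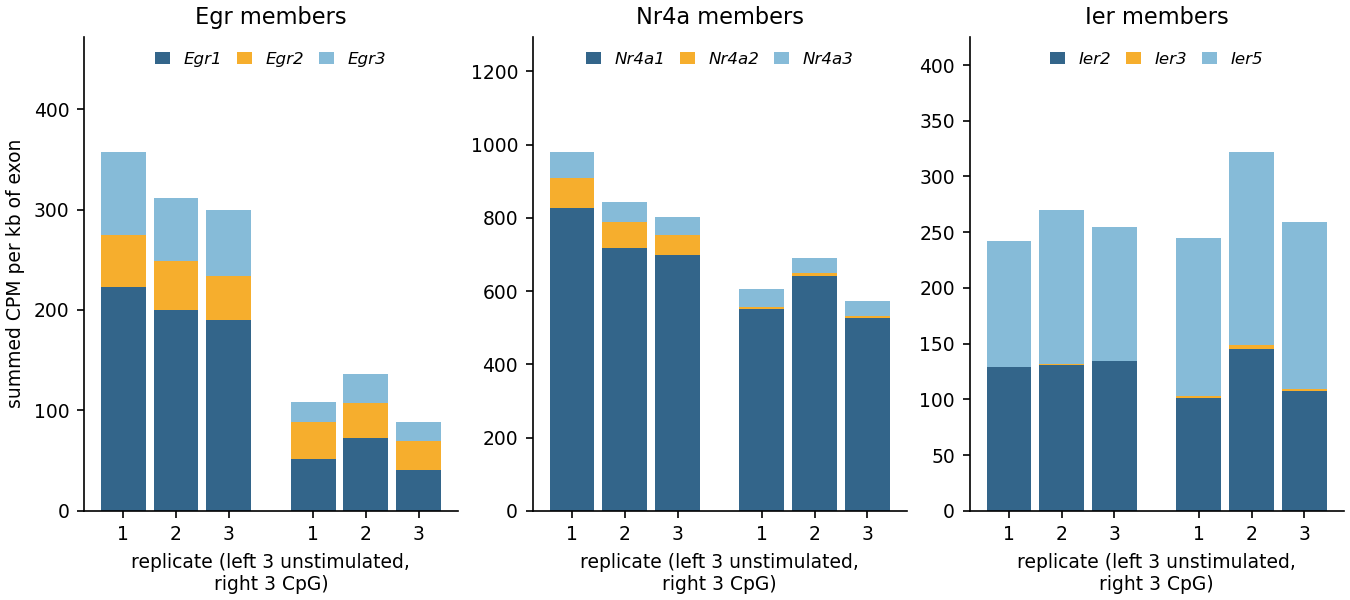
Summed CPM per kb of annotated exon in each sample, stacked by gene, for the Egr, Nr4a and Ier genes; in each panel the left 3 bars are unstimulated and the right 3 CpG-stimulated replicates 1 to 3. The Egr total falls from 323 to 111 CPM per kb on average, the Nr4a total stays mostly Nr4a1 while the Nr4a2 band nearly disappears, and the Ier totals overlap between the groups.

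The Ier genes differed from one another in level and in direction. Ier3, on chromosome 17 from 35821684 to 35822923 (plus strand), encodes a stress and NF-κB induced protein that modulates cell survival. It read -1.04, -0.30 and -0.07 log2 CPM without CpG, or 8.15 to 16.4 reads, and 1.21, 1.98 and 1.12 with it, or 38.3 to 69.4 reads. Every stimulated sample was at least 1.19 above every unstimulated one. The log2FC was 1.91 (standard error 0.34, 95% interval 1.14 to 2.67), 3.75-fold higher, with the largest standard error of the 9 genes. Unstimulated replicate 1 was below the level of 10 reads, so a filter that asks for more than this in all 6 samples leaves Ier3 untested.

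Ier5, on chromosome 1 from 155096361 to 155099636 (minus strand), is known as a regulator of heat shock factor 1. Its values were 8.53, 8.83 and 8.62 log2 CPM without and 8.86, 9.15 and 8.94 with CpG. The groups were 0.03 apart, but within replicate numbers the difference was 0.33, 0.32 and 0.32. The log2FC of 0.32 (standard error 0.10, 95% interval 0.11 to 0.54) met the FDR threshold but no longer did so without unstimulated replicate 1. These fits had no term for the replicate number, and leaving out a single sample breaks its pair. With the replicate number as a block, Ier5 also met the FDR threshold.

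Ier2, on chromosome 8 from 84661331 to 84662852 (minus strand), encodes a nuclear protein of the early response. It was at 7.62, 7.64 and 7.67 log2 CPM without and 7.27, 7.79 and 7.35 with CpG. Replicate 2 of the stimulated samples was the highest of all 6, and the groups overlapped. The log2FC was -0.17 (standard error 0.12, 95% interval -0.43 to 0.09), which did not meet either threshold. Without CpG-stimulated replicate 2 it was -0.33 and met the FDR threshold, and without CpG-stimulated replicate 1 it was -0.07. The summed Ier level per kb was 256 ± 14.2 CPM without and 275 ± 41.3 CPM with CpG (SD, n = 3 each).

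**Figure D3:**
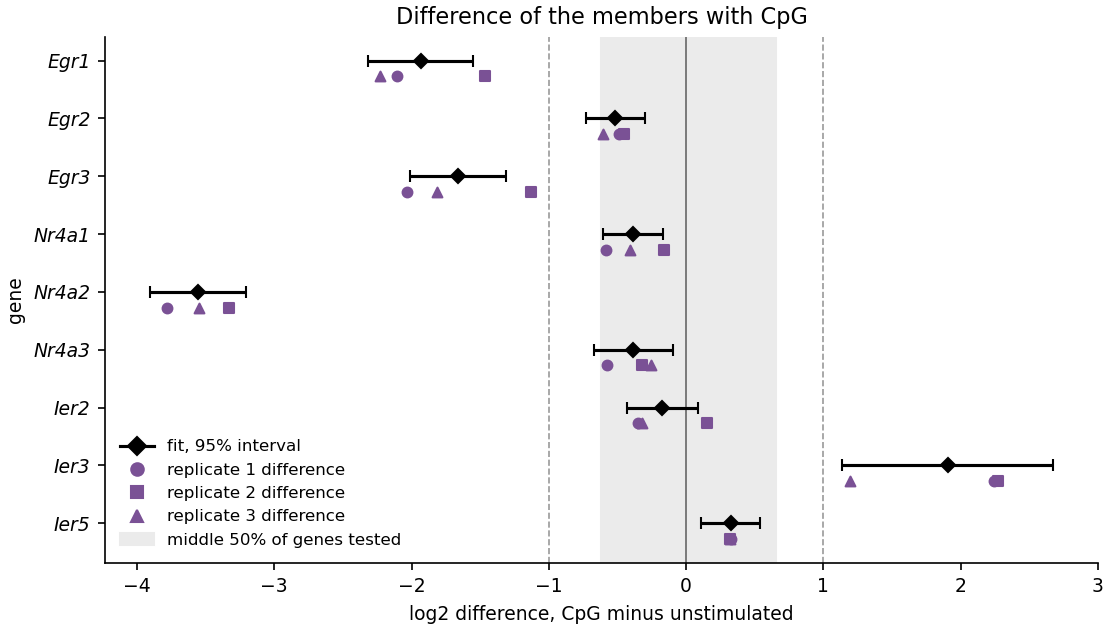
Log2 difference between CpG-stimulated and unstimulated samples for the 9 genes. Diamonds with bars are the limma estimate and its 95% interval, purple marks the differences within replicate numbers 1 to 3, dashed lines a log2FC of 1 and -1, and the gray band the middle 50% of the 11233 genes tested. Nr4a2, Egr1 and Egr3 lie left of the dashed line at -1, Ier3 lies right of that at 1, and the other 5 estimates lie inside the gray band.

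By level per kb in unstimulated cells the order was Nr4a1 (mean 9.54 log2 CPM per kb), Egr1 (7.67), Ier2 (7.04), Ier5 (6.95), Egr3 (6.13), Nr4a2 (6.08), Nr4a3 (5.86), Egr2 (5.58) and Ier3 (-0.65). The ranges over the 3 samples overlapped between the neighbours Ier2 and Ier5, Egr3 and Nr4a2, Nr4a2 and Nr4a3, and Nr4a3 and Egr2. With CpG it was Nr4a1 (9.16), Ier5 (7.27), Ier2 (6.86), Egr1 (5.74), Nr4a3 (5.48), Egr2 (5.07), Egr3 (4.47), Nr4a2 (2.53) and Ier3 (1.26), with overlap between Ier5 and Ier2 and between Egr1 and Nr4a3. Of 10558 genes with a length, Egr1 ranked 177 without and 881 with CpG, and Nr4a2 580 and 5404. Unstimulated B cells after 4 hours of culture thus held these transcripts at levels above those of most genes, except for Ier3.

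The replicates shared a further feature. For 5 of the 6 Egr and Nr4a genes the least negative difference was in replicate 2, the exception being Nr4a3. Replicate 2 also gave the least negative difference for 1038 of the 1723 genes called lowered (60.2%) and for 36.0% of all genes tested.

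Both genes tested for partners of the EGR factors were lower on the FDR alone, as were 36.7% of all genes tested. Neither was called. NAB1 and NAB2 are corepressors that bind EGR proteins, and Nab2 is itself an EGR target. Nab2 read 5.89, 5.77 and 5.93 log2 CPM without and 4.87, 5.15 and 5.06 with CpG, a log2FC of -0.84 (standard error 0.09, Benjamini-Hochberg FDR = 1.19e-05 in limma), below the size of a call. Nab1 had a log2FC of -0.33 (standard error 0.08, Benjamini-Hochberg FDR = 0.00288 in limma). Egr4, the remaining Egr gene, was too low to test, at -0.33, -1.36 and -2.00 without and -4.52, -1.24 and -2.77 log2 CPM with CpG, and the groups overlapped. Wt1, whose product binds similar sites, was under 3 reads in all samples. Both RXR genes tested, whose products pair with NR4A1 and NR4A2 on DNA, were called in neither direction, and Rxrg was under 3 reads. Of these, Rxrb was lower on the FDR alone (log2FC -0.38, standard error 0.07, Benjamini-Hochberg FDR = 0.000615 in limma). Rxra (-0.24) did not meet the FDR threshold. Both were named after their values were seen.

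Most genes that relay signals to Egr promoters were called in neither direction. Of 6 genes for SRF and its cofactors, 1 was lowered (15.3% of all genes tested) and 0 raised (15.8%), with a median log2FC of -0.55. On the FDR alone, 4 of these 6 were lower (36.7% of all genes tested) and 1 was higher (37.6%). Elk4, an ETS factor that joins SRF on promoters, was lowered (log2FC -1.18, standard error 0.06, Benjamini-Hochberg FDR = 1.14e-07 in limma). Srf itself was higher by 0.53 (standard error 0.07, Benjamini-Hochberg FDR = 5.44e-05 in limma), short of a call. Of 22 genes of the ERK cascade and its brakes, 2 were raised (15.8% of all genes tested) and 2 lowered (15.3%), with a median of -0.11. On the FDR alone, 9 of these 22 were lower (36.7% of all genes tested) and 6 were higher (37.6%). Dusp6, the phosphatase that inactivates ERK and is itself induced by ERK, fell from 4.56, 4.32 and 4.82 to 1.83, 2.40 and 1.84 log2 CPM, a log2FC of -2.54 (standard error 0.18, Benjamini-Hochberg FDR = 7.55e-07 in limma). Raised were Rps6ka1, a kinase downstream of ERK (1.65), and Spred1, an inhibitor of the cascade (1.62).

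CREB, MEF2 and NFAT factors are the main known regulators of Nr4a transcription. Of 13 such genes 4 were lowered (15.3% of all genes tested) and 1 raised (15.8%), with a median log2FC of -0.55. Crem, a CREB family gene whose short products repress CREB targets, fell from 9.25, 9.50 and 9.45 to 6.68, 7.16 and 6.86 log2 CPM. Its log2FC was -2.50 (standard error 0.11, Benjamini-Hochberg FDR = 5.35e-08 in limma). Mef2c, which is needed for B cell proliferation after antigen receptor signals, had a log2FC of -2.24 (standard error 0.07, Benjamini-Hochberg FDR = 1.50e-08 in limma). Nfatc2 (-1.62) and Mef2d (-1.23) were the other lowered genes and were named after their values were seen. Crtc2, a CREB coactivator, was raised by 1.03, but not without CpG-stimulated replicate 2 (0.99).

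Other immediate early genes moved in both directions. Of 32 listed genes 31 were tested, of which 11 were lowered (15.3% of all genes tested), 5 raised (15.8%) and 15 neither, with a median log2FC of -0.38. The lowest was Rgs2, a regulator of G protein signaling, at 8.38, 8.85 and 8.63 log2 CPM without and 4.77, 6.16 and 4.70 with CpG (log2FC -3.41, standard error 0.32, Benjamini-Hochberg FDR = 5.28e-06 in limma). Plk2, a polo-like kinase, followed with -3.17. The AP-1 genes Fos (-1.99) and Fosb (-2.10), named after their values were seen, were lowered to about the extent of Egr1. Jun, their partner, went the other way, from 6.59, 7.00 and 6.46 to 10.02, 9.99 and 10.02 log2 CPM, a log2FC of 3.32 (standard error 0.12, Benjamini-Hochberg FDR = 1.86e-08 in limma). Gadd45b, a stress gene induced by NF-κB, was raised by 2.17 (standard error 0.10).

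Genes tied to NR4A factors in B cells were mostly higher. NR4A1 is known to restrain Batf, Myc, Cd86, Ccl3, Ccl4 and Icam1 in B cells that receive antigen signals. Of these 6 genes 5 were raised (15.8% of all genes tested) and 0 lowered (15.3%), with a median log2FC of 2.86. A part of the NR4A factors in these differences was not tested. Batf, an AP-1 family factor, had the highest log2FC of the list (5.03, standard error 0.09, Benjamini-Hochberg FDR = 1.66e-09 in limma), and Ccl3, a chemokine, the next (3.45). Cd86, a costimulatory ligand, had a log2FC of -0.80 (standard error 0.12, Benjamini-Hochberg FDR = 0.000125 in limma). The list was written with results of these data known.

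Genes that respond to heat and handling differed in both directions. Of 10 such genes 5 were lowered (15.3% of all genes tested) and 1 raised (15.8%), with a median log2FC of -0.93. Hspa1a, an inducible heat shock protein, read 7.21, 8.36 and 7.81 log2 CPM without and 5.08, 6.75 and 5.02 with CpG (log2FC -2.18, standard error 0.42, Benjamini-Hochberg FDR = 0.000947 in limma). Hspa1b, its neighbor, had a log2FC of -2.43. Hspa1a and Hspa1b are near-identical copies, so the share of each is uncertain. Hspa8, the constitutive form, was raised (1.24), the only gene of the list that was. The chaperone genes Hsph1 (0.89) and Hsp90aa1 (0.82), named after their values were seen, were higher on the FDR alone. The part of handling and culture in the levels of the Egr and Nr4a genes was not tested, as no sample was taken before culture.

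**Figure D4:**
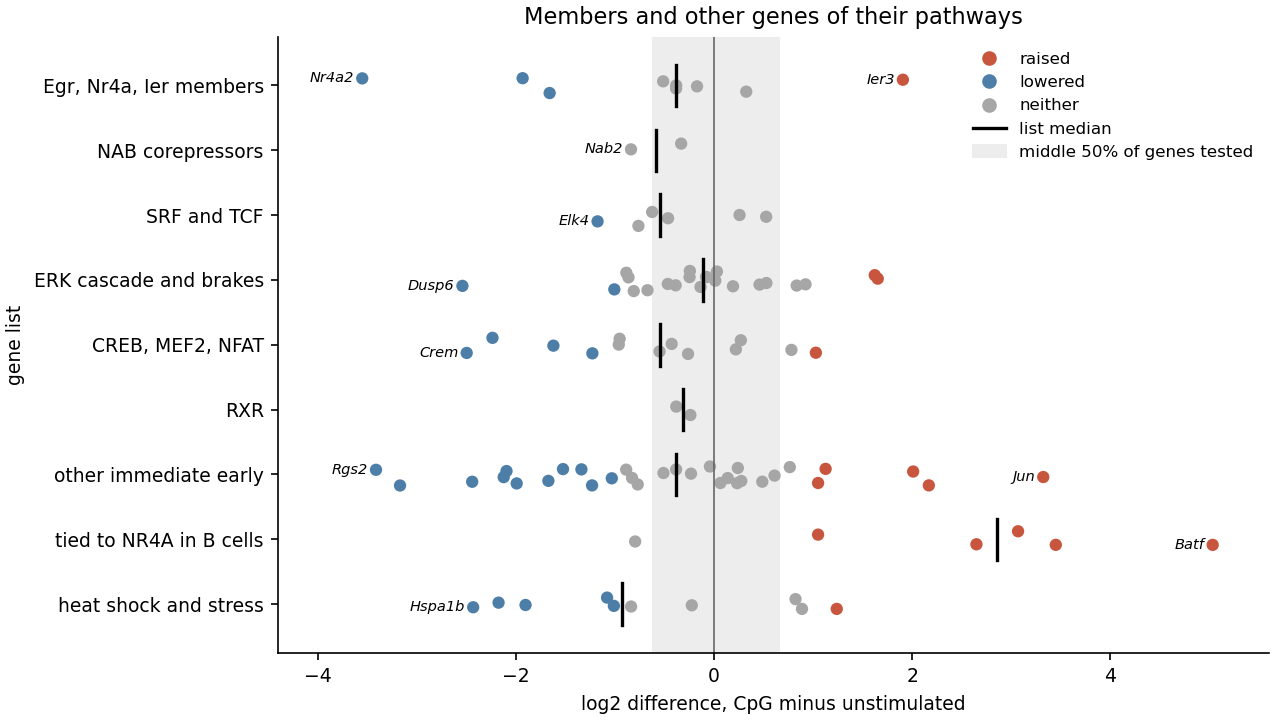
Log2 difference between CpG-stimulated and unstimulated samples for the 9 genes and for the tested genes of 8 lists. Each point is a gene, red if raised, blue if lowered and gray if neither; black lines are list medians and the gray band holds the middle 50% of all genes tested. The list tied to NR4A factors lies mostly to the right with a median of 2.86, heat shock and stress genes have a median of -0.93, and other immediate early genes spread from -3.41 to 3.32.

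Likeness of pattern was measured as the root mean square difference over the 6 samples after each gene was centered on its mean. The gene most like Egr1 was Dnase1l3, a secreted nuclease that digests DNA in chromatin, at a distance of 0.030 on the log2 scale. It read 4.53, 4.36 and 4.29 log2 CPM without and 2.35, 2.84 and 2.03 with CpG. Golm1 (0.094) and Cacnb4 (0.106) were next, and 30 genes were nearer to Egr1 than Egr3 was (0.172). Rgs14 (0.183), Stk38l (0.184) and Fgd3 (0.199) were nearest to Nr4a2, and Gadd45g (0.168), Crip2 (0.176) and Adam8 (0.213) to Ier3. Among the 9 genes, the closest pair was Egr2 and Nr4a1 (0.116), followed by Nr4a1 and Nr4a3 (0.149), and 117 genes were nearer to Egr2 than Nr4a1 was. These distances contain the replicate shift as well as the difference between the groups.

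RefSeq promoters were available for 6 of the 9 genes, Egr2, Nr4a1, Nr4a2, Nr4a3, Ier3 and Ier5. Motifs were searched on both strands in the 250 bases before each start site, and in the same stretch of all 32851 promoters of the table. They were the CArG box (bound by SRF), CRE TGACGTCA and its core TGACG (CREB), GCGNGGGCG (EGR factors), NBRE AAAGGTCA (NR4A factors), TGANTCA (AP-1) and the NF-κB site. The core lies within the full CRE. It was added after the first promoter bases had been read. A match describes the letters only.

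Each of the 3 Nr4a promoters held 4 CRE cores, where 17.8% of all promoters had at least 1 and 0.137% (45 promoters) at least 4. The cutoff of 4 is the count in these same promoters, so the share of 0.137% is a description and no test. The full CRE was in 0 of the 6 genes' promoters (1.55% of all), as were the NBRE (1.34%) and the AP-1 site (6.75%). An EGR site was found once each in Nr4a1 and Nr4a2 (4.70% of all). The Egr2 windows held a CArG box before 4 of the 5 start sites (1.47% of all), but 3 of these windows overlap and share 1 box, so there are 2 distinct boxes. Ier3 held 1 NF-κB site (3.90% of all), and Ier5 none of the motifs. The stretches below are shown because the motifs set the Nr4a, Egr2 and Ier3 promoters apart in letters. They are on GRCm38 (RefSeq, GRCm38.p6), 5′ to 3′ along the gene. Each is the window before a start site, cut at the first annotated exon base within that window. Capitals mark the motif matches: CGTCA or TGACG for the core, CGCCCCCGC and GCGCGGGCG for the EGR site, CCATATATGG for the CArG box and GGAGTTCCCC for the NF-κB site.
Nr4a1, chr15:101266596-101266845, plus strand: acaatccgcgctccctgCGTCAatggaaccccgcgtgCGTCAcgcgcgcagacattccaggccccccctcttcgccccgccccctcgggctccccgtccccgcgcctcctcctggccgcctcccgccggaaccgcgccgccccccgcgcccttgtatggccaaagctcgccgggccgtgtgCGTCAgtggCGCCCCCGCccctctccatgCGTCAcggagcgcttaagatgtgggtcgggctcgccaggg
Nr4a2, chr2:57124004-57124253, minus strand: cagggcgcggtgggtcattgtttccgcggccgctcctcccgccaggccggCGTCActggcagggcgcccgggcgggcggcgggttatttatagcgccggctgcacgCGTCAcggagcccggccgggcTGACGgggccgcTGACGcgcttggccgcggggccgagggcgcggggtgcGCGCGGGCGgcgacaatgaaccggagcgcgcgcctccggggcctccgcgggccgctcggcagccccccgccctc
Nr4a3, chr4:48045055-48045152, plus strand: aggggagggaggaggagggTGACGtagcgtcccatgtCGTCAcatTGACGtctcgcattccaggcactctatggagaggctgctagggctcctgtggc
Egr2, chr10:67537619-67537868, plus strand: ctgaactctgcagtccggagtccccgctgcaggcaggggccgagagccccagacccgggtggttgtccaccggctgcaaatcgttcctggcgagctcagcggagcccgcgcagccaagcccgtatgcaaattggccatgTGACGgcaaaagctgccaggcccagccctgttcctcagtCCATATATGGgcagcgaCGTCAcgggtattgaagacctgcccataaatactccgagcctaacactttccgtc
Ier3, chr17:35821463-35821683, plus strand: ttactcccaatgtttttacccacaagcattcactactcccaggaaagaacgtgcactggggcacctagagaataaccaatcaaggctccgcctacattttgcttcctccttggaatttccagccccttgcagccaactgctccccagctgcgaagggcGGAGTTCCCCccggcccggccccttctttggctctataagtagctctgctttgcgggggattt

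In these stretches the Nr4a1 cores start at -233, -213, -69 and -40 from the start site, and its EGR site at -60. The Nr4a2 cores start at -200, -144, -123 and -111, and its EGR site at -74. Nr4a3 has cores from -231, -213, -205 and -147, of which the last lies past the first annotated exon base and is not printed. The Nr4a1 and Egr2 stretches both lie within the annotated spans of their genes and hold no annotated exon bases. The Egr2 stretch, between exons, has the CArG box from -72 and cores from -111 and -55. The NF-κB site of Ier3 starts at -92.

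**Figure D5:**
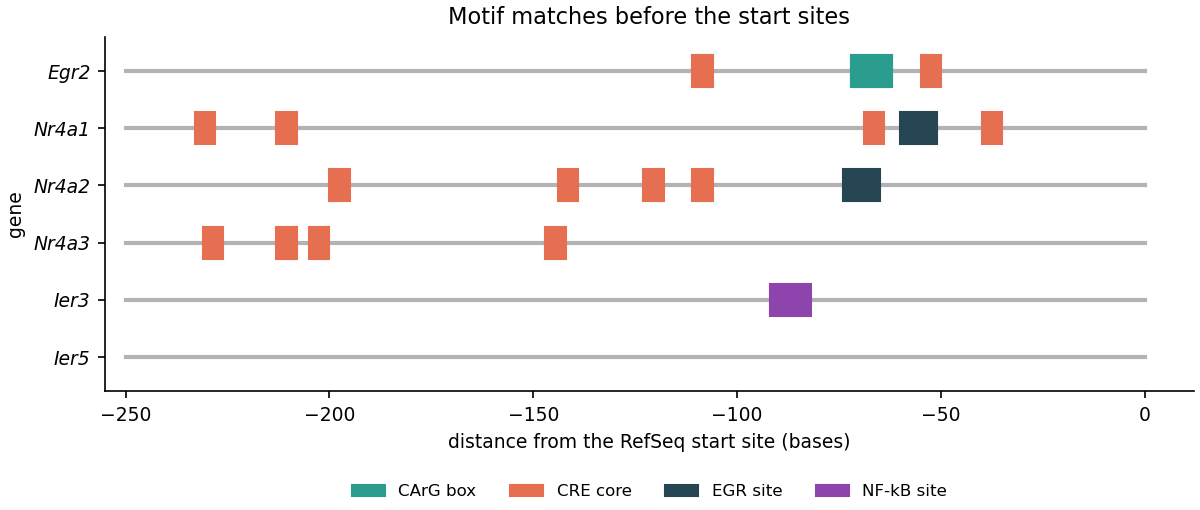
Motif matches in the 250 bases before RefSeq start sites of 6 of the genes, by distance from the start site in bases; for Egr2 the window with the printed sequence is drawn. Orange boxes are CRE cores, dark blue EGR sites, green the CArG box and purple the NF-κB site. The 3 Nr4a promoters have 4 orange boxes each, and Ier5 has no box.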

How the data were processed

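Expression of splenic B cells was measured by mRNA-seq (TruSeq, paired reads of 75 bases) in 6 samples, grouped by the treatment in their labels. Per the labels and the methods, the authors trimmed reads with Trim Galore 0.6.5, aligned them to mm10 with STAR 2.6.1a and counted them per gene with featureCounts (Subread 2.0.1); the strand setting and annotation are not given in the sources used here. The deposited values are log2 CPM after quantile normalization and voom, not counts. Genes without reads were most often at -5.15, the level of 0.5 reads, which gives a common library of 17.8 M reads, although the shift by replicate number moves some of them away from it; the sums over genes, 992384 to 1012396 CPM, do not show the depth of each sample. Ranges in reads are the lowest and highest of the samples of a group, converted from the normalized values.

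The 6 samples were fitted together with limma 3.58.1 in R 4.3.3 (lmFit, eBayes with a trend) over the 11233 genes with more than 10 reads in at least 3 samples, with Benjamini-Hochberg adjustment. The main fit had no term for the replicate number, so its standard errors and intervals do not use the pairing. The fit was tested on simulated data with known changes. Exon lengths, positions and overlaps are from GENCODE M21; none of the 9 genes overlaps another or shares a stretch of 75 bases with one. Adgre1 and Hras were matched by their older symbols.

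The genes described and all gene lists were chosen with earlier results of these data known. Named besides the 9 are Egr4, Nab1, Nab2 and Srf, the 2 highest and 2 lowest called genes of each other list (1 of them is not reported here), and the 3 genes nearest to the member of each family with the largest change. The labels give both groups replicate numbers 1 to 3. Deviations from the group means correlated by 0.435, 0.224 and 0.300 between samples with the same number and by -0.281 to 0.0279 otherwise, so the numbers were taken to pair the samples, although the shift by number can also give this. Alternatives were the low-value filter, the log2(CPM + 1) scale, the variance trend, the centering of samples, the replicate block, single samples left out, and the length of the longest transcript. Leaving out replicate 2 of both groups was added after the data were seen. Fits that need counts and a comparison of protein sequences were not run.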

Additional observations from a re-analysis of the deposited data

How the results depend on the processing

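Across the alternatives tried, all 125 values obtained for the 9 genes kept their direction and their call of raised, lowered or neither, which rests on size and FDR together. The count of raised genes among the 9 was 1, except that it was 0 where more than 10 reads were required in every sample, since Ier3 was then not tested; the count lowered was 3 in every setting. Without each sample in turn, log2FC ran from -3.70 to -3.41 for Nr4a2, from -2.15 to -1.73 for Egr1, from -1.85 to -1.54 for Egr3, from -0.58 to -0.41 for Egr2, from -0.47 to -0.31 for Nr4a1, from -0.49 to -0.22 for Nr4a3, from -0.33 to -0.07 for Ier2, from 0.24 to 0.41 for Ier5 and from 1.62 to 2.11 for Ier3, which was 1.10 on the log2(CPM + 1) scale. The FDR threshold was missed by Nr4a1, Nr4a3 and Ier5 without a filter, by Nr4a3 also without the variance trend or CpG-stimulated replicate 3, and by Ier5 also without unstimulated replicate 1. Ier2 met it without CpG-stimulated replicate 2 and without replicate 2 of both groups. The replicate block gave 1784 raised and 1728 lowered genes, against 1778 and 1723, and changed no other call. Over all genes the counts were 1650 to 1851 raised and 1667 to 1807 lowered without single samples, and lowest on the log2(CPM + 1) scale (1331 and 1351). Of 403 values of 29 other named genes, 12 in 7 genes (among them Crtc2, Hspa1b, Hspa1a, Cacnb4, Crip2 and Adam8) became weaker and none was reversed. Centering on the median or on 12 housekeeping genes moved the median log2FC of all genes by -0.004 and -0.048. With the longest transcript as length, the unstimulated level per kb of Nr4a1 was 10.0 and that of Egr2 5.78.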

Other observations

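The difference of Ier5 was nearly the same in the 3 replicate numbers. The SD of its 3 within-number differences was 0.00265, and 6 of the 11233 genes tested (0.0534%), Ier5 included, had one as small; the median SD over all genes was 0.139. Ier3 (0.616), Egr3 (0.471) and Egr1 (0.410) had SDs above those of most genes. Ier5 was singled out after its values were seen.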
